A study of Homo sapiens with 12 samples.

Results

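Interferon-stimulated genes (ISGs) are the genes that a cell switches on after interferon has bound its receptor. A list of 56 of them was followed here in breast cancer cells selected for resistance to epirubicin, an anthracycline. The members were chosen by name, through GENCODE 29 symbols and Ensembl identifiers, with earlier results of these data known. All 56 were found among the 58735 genes listed in both deposited expression tables. SK-BR-3 is a long-used human breast cancer cell line with abundant ERBB2. SK/EPI was derived from SK-BR-3 by long exposure to stepwise increasing epirubicin, so the resistant model is 1 derived line. SK-BR-3 and SK/EPI were untreated and shared 1 table. The other table held SK/EPI cells transfected for 48 h with Lipofectamine RNAiMax and either a control siRNA (SK/EPI-siNC) or an siRNA against BCRP (SK/EPI-siBCRP). BCRP is the drug efflux pump encoded by ABCG2. Each of the 4 groups had 3 libraries of poly(A) RNA. According to the methods, the cells were prepared in triplicates. No source used here says whether these were separate cultures, so the p-values measure only the spread between libraries, which may be technical.

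Type I and type III interferons signal through JAK1 and TYK2 to STAT proteins, among them STAT2, which work with IRF9 in a complex that binds the interferon-stimulated response element (ISRE). Its targets block viral entry (the IFITM proteins), recognise viral RNA (DDX58 and IFIH1) or bind it (the IFIT proteins). Other targets make the activator of the nuclease RNase L (OAS1, OAS2 and OAS3) or attach the ubiquitin-like ISG15 to other proteins. Many ISGs encode parts of the pathway itself, and USP18 removes ISG15 and restrains the receptor. Tumour cells can express ISGs at a standing level without added interferon.

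Promoter sequences are shown because they carry the feature that these genes are known for and that the list did not use. RefSeq windows of 250 bases before to 50 bases after the gene start (GRCh38.p14) were matched for 45 of the 56 members. An ISRE core was searched as GAAA, any 2 bases, GAAA, on both strands, so that on the other strand it reads TTTC, any 2 bases, TTTC. Cores may overlap one another. At least 1 core was present in 31 of the 45 members (68.9%), and in 1195 of all 27305 genes with a window (4.38%). A second motif, the gamma-activated sequence searched as TTC, any 3 bases, GAA, which is its own reverse complement, was present in 14 members (31.1%) and in 9.38% of all genes. A match is a run of letters and not a measured binding site. The stretches below read 5′ to 3′ on the strand of the gene, with the cores in capitals. The first set is from members that were higher in SK/EPI than in SK-BR-3.
ISG15, chr1:1013372-1013411, plus strand: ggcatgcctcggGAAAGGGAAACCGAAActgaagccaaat
IFI6, chr1:27672264-27672319, minus strand: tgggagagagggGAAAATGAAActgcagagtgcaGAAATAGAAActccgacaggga
IFIT1, chr10:89392495-89392541, plus strand: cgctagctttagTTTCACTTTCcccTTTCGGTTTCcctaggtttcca
IFITM1, chr11:313988-314055, plus strand: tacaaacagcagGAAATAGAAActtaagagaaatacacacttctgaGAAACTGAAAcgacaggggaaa
IFITM3, chr11:320874-320924, minus strand: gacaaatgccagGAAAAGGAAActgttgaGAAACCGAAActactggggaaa
HERC5, chr4:88457033-88457066, plus strand: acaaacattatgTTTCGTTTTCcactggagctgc

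The ISG15 cores overlap, so that 2 cores fill 1 run of capitals, and they end 98 bases before the start. The next set is from 3 of the 5 members that were lower in SK/EPI. Of the other two, ADAR had no core in its windows and USP18 was not matched to a window.
BST2, chr19:17405733-17405772, minus strand: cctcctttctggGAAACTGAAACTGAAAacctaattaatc
ISG20, chr15:88638935-88638968, plus strand: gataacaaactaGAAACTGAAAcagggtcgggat
LGALS3BP, chr17:78979960-78979993, minus strand: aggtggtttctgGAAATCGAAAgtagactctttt

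The last pair is 1 site. PARP9 and DTX3L lie head to head, and the same core was read from opposite strands in both windows.
PARP9, chr3:122564320-122564353, minus strand: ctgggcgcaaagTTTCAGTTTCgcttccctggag
DTX3L, chr3:122564320-122564353, plus strand: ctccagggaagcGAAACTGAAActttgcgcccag

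Levels are given as FPKM, which scale the fragments of a gene to its exon length and to the size of the library. Whole reads could be recovered from them, and 15830381 to 20545811 reads per library lay on genes. ABCG2 served as a check of the labels. Its mean level was 0.0497 FPKM in SK-BR-3, 34.1 in SK/EPI, 33.0 in SK/EPI-siNC and 3.08 in SK/EPI-siBCRP, so the knockdown libraries were low as labelled. The luminal markers EPCAM, KRT8, KRT18, KRT19 and ERBB2 were abundant in every group, while CDH1 had at most 17 reads in any library.

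The first comparison asked how the resistant line differed from its parent. The ISGs were higher in SK/EPI across nearly every functional group. Of the 56 members, 51 had enough reads to test, 46 of these rose (adjusted p under 0.05, limma with Benjamini-Hochberg adjustment over 15823 genes) and 5 fell. Among all tested genes 37.9% rose and 37.0% fell. With a log2 fold change of at least 1 as well, 31 members rose and 3 fell, where 7.87% of all genes rose and 6.53% fell. The median log2 fold change of the tested members was 1.47, beside 0.008 for all tested genes. Bulk RNA cannot separate a higher level in every cell from more expressing cells.

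The filter needs a caution, because 11 of the tested members had under 10 reads in at least 1 SK-BR-3 library and passed through their SK/EPI level. These were IFI27, IFI44, IFI44L, IFIT1, OAS2, OASL, HERC5, DDX60, XAF1, SAMD9L and LAMP3, and for them a test could hardly go the other way. With at least 10 reads required in all 6 libraries, 40 members remained, of which 35 rose and 5 fell. In that set 36.4% of all genes rose and 39.4% fell. The members' median was then 1.04. It was 2.75 over the 51 members when the recovered reads were fitted with voom, which adds less to low values. MX2, RSAD2, EPSTI1, CMPK2 and RTP4 were not tested. Of these 5, all but EPSTI1 had higher values in each SK/EPI library than in any SK-BR-3 library.

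**Figure D1:**
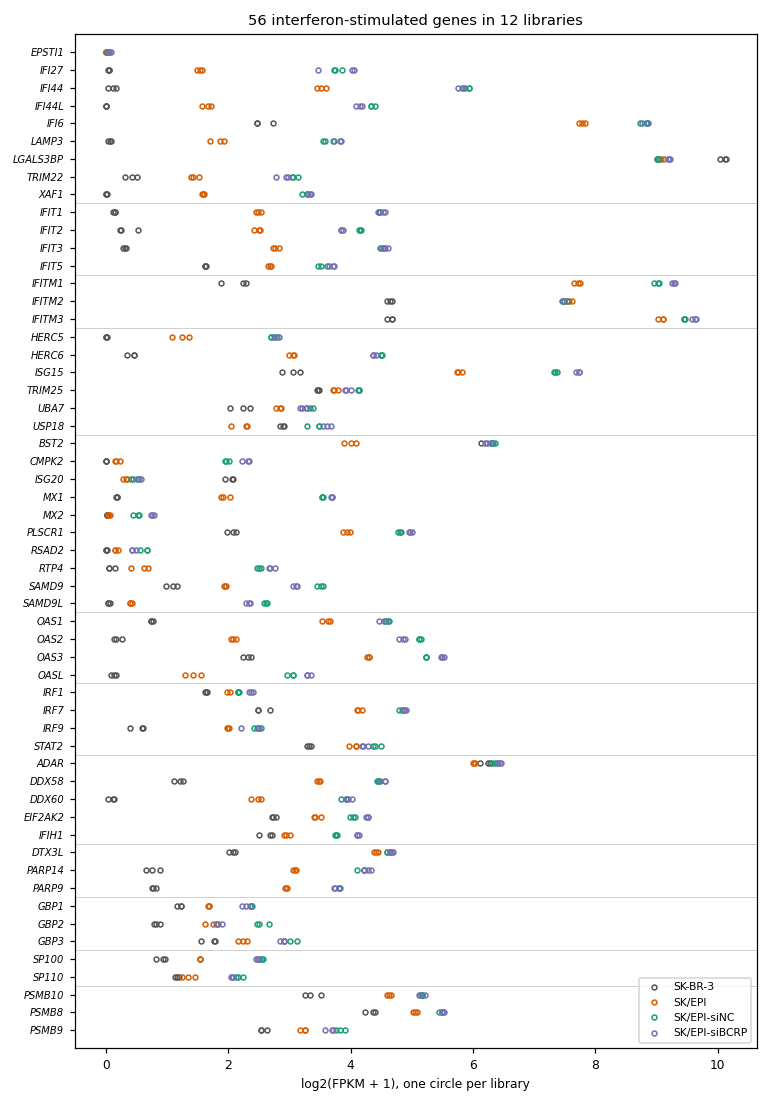
Level of each of the 56 members in the 12 libraries, as log2(FPKM + 1) on the horizontal axis, with 1 circle per library, colours for the 4 groups and grey lines between functional groups. The SK-BR-3 circles lie lowest for most genes and the transfected cells highest; BST2, ISG20, LGALS3BP, USP18 and ADAR are the 5 members with SK/EPI below SK-BR-3.

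The IFITM genes, which encode small membrane proteins that hinder virus entry, were among the most abundant members in SK/EPI. IFITM1 measured 3.91, 3.74 and 2.67 FPKM in SK-BR-3 and 200.1, 215 and 209 FPKM in SK/EPI. This is a 60.4-fold higher mean, and on the log2(FPKM + 1) scale used for all tests the change was 5.57 ± 0.10 (SE, n = 3 libraries per group; limma adjusted p = 3e-09). IFITM3 went from 23.1, 24.4 and 24.7 FPKM to 518, 551 and 552 FPKM, a log2 fold change of 4.43 ± 0.04. No SK-BR-3 library came near a SK/EPI library in either gene. IFITM2 measured 23.1, 24.0 and 24.7 FPKM in SK-BR-3 and 184, 189 and 196 FPKM in SK/EPI, a log2 fold change of 2.94 ± 0.04. These genes are neighbours on chromosome 11, and their exons partly overlap those of other annotated genes. Of the exonic bases of IFITM1, 32.5% are also annotated to IFITM2, and 21.3% of those of IFITM3 overlap a gene on the opposite strand.

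IFI6, a mitochondrial and endoplasmic reticulum protein that limits cell death and flavivirus replication, was another abundant member in SK/EPI. It measured 4.52, 5.63 and 4.55 FPKM in SK-BR-3 and 212, 226 and 219 FPKM in SK/EPI, a 44.7-fold higher mean with a log2 fold change of 5.22 ± 0.07 (limma adjusted p = 6.8e-10). IFI44 was close to absent in SK-BR-3, at 0.124, 0.0815 and 0.0258 FPKM, and stood at 10.4, 11.1 and 9.96 FPKM in SK/EPI. Its log2 fold change of 3.41 ± 0.06 understates the 136-fold ratio of the means, since 1 FPKM is added before the logarithm. IFI44L, its neighbour, had no read in the 3 SK-BR-3 libraries and 2.28, 2.18 and 1.96 FPKM in SK/EPI, which is at least 128-fold higher when 3 reads per library are taken as the floor. IFI27, HERC5 and XAF1 were likewise at or under 3 reads in every SK-BR-3 library. Of XAF1, 38.3% of the exonic bases overlap an opposite-strand gene, and whether the counting used strand is not given in the sources used here.

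All 4 IFIT genes, whose products bind foreign RNA ends, rose. So did OAS1, OAS2 and OAS3, whose products make the activator of RNase L, and OASL, the other member of the OAS group. The IFIT log2 fold changes ran from 1.05 for IFIT5 to 2.47 for IFIT3. IFIT2 measured 0.169, 0.432 and 0.192 FPKM in SK-BR-3 and 4.68, 4.35 and 4.74 FPKM in SK/EPI. OAS1 measured 0.662, 0.705 and 0.669 FPKM and then 10.6, 11.6 and 11.3 FPKM, a log2 fold change of 2.86 ± 0.05 (limma adjusted p = 3.4e-09). The other OAS members rose less on this scale, down to 1.29 for OASL, which had under 10 reads in a SK-BR-3 library. By the ratio of means, however, OAS2 (23.9-fold) and OASL (18.0-fold) rose more than OAS1 (16.5-fold), and OAS3 rose less (4.66-fold). OAS2 measured 0.0905, 0.115 and 0.201 FPKM in SK-BR-3 and 3.38, 3.10 and 3.22 FPKM in SK/EPI, and OAS3 had a log2 fold change of 1.97 ± 0.05.

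In the ISG15 pathway 5 members rose and 1 fell. ISG15 itself measured 7.30, 6.36 and 7.98 FPKM in SK-BR-3 and 53.0, 52.2 and 55.3 FPKM in SK/EPI, a log2 fold change of 2.73 ± 0.07 (limma adjusted p = 1.4e-08). HERC6, a HECT-type ubiquitin ligase, measured 0.381, 0.268 and 0.381 FPKM and then 6.98, 7.28 and 7.42 FPKM, a log2 fold change of 2.62 ± 0.06. HERC5, the main human ISG15 ligase, had at most 0.0116 FPKM in SK-BR-3 and 1.11, 1.57 and 1.38 FPKM in SK/EPI. The enzymes that start and assist the conjugation moved less: UBA7, the ISG15-activating enzyme, by 0.61 and TRIM25 by 0.28 on the log2 scale. USP18, the ISG15 protease, went the other way. It measured 6.19, 6.53 and 6.46 FPKM in SK-BR-3 and 3.88, 3.15 and 3.96 FPKM in SK/EPI, a log2 fold change of -0.67 ± 0.08 (limma adjusted p = 8e-05), although 23.4% of its 50-base stretches also occur in USP41.

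All 4 transcription factors among the members rose. IRF7, the amplifier of interferon transcription, measured 5.44, 4.61 and 4.62 FPKM in SK-BR-3 and 16.4, 17.2 and 16.2 FPKM in SK/EPI, a log2 fold change of 1.58 ± 0.06. IRF9, the DNA-binding partner of STAT2, had a log2 fold change of 1.47 ± 0.07, with 48.4% of its exonic bases shared with another annotated gene on the same strand. STAT2 measured 8.96, 8.77 and 9.23 FPKM and then 15.9, 14.8 and 16.0 FPKM, a log2 fold change of 0.73 ± 0.04. IRF1 had the smallest rise of the 4, at 0.42 ± 0.06 (limma adjusted p = 0.00041). The SK-BR-3 and SK/EPI libraries did not overlap for any of these 4 genes.

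Among the sensors of double-stranded RNA the changes were uneven. DDX58, which encodes RIG-I, measured 1.158, 1.32 and 1.40 FPKM in SK-BR-3 and 10.2, 10.3 and 9.95 FPKM in SK/EPI, a log2 fold change of 2.28 ± 0.06. IFIH1, which encodes MDA5, measured 4.66, 5.44 and 5.59 FPKM and then 6.51, 7.01 and 6.67 FPKM, a log2 fold change of 0.31 ± 0.07 (limma adjusted p = 0.00303). EIF2AK2, the kinase PKR, rose by 0.70 ± 0.05 on the log2 scale. ADAR, which edits double-stranded RNA, fell by 0.21 on the log2 scale. It was abundant in both lines, between 62.6 and 76.9 FPKM.

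BST2, tetherin, which holds budding virions at the cell surface, had the largest fall on the log2(FPKM + 1) scale, at 4.99-fold by the ratio of means, while ISG20 fell more by that ratio, at 12.4-fold. BST2 measured 78.1, 77.8 and 69.1 FPKM in SK-BR-3 and 13.9, 16.1 and 15.1 FPKM in SK/EPI, a log2 fold change of -2.24 ± 0.06 (limma adjusted p = 2.7e-08). ISG20, an exonuclease, measured 3.15, 3.22 and 2.87 FPKM and then 0.249, 0.218 and 0.276 FPKM, a log2 fold change of -1.71 ± 0.06. LGALS3BP, a secreted glycoprotein, was the most abundant member in SK-BR-3 at 1112, 1119 and 1043 FPKM and fell to 511, 534 and 553 FPKM, a log2 fold change of -1.03 ± 0.06. In each of these 3 genes every SK/EPI library lay below every SK-BR-3 library.

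MX1, a GTPase that blocks viral replication, measured 0.139, 0.135 and 0.116 FPKM in SK-BR-3 and 2.75, 3.08 and 2.70 FPKM in SK/EPI, a log2 fold change of 1.77 ± 0.06. PLSCR1, DDX60, LAMP3 and TRIM22 rose by 1.86, 2.36, 1.77 and 1.03 on the log2 scale. By the ratio of means these rises were 4.47-fold, 64.2-fold, 57.6-fold and 5.16-fold. PARP9, DTX3L and PARP14 rose by 2.16 to 2.34 on the log2 scale. The guanylate-binding genes GBP1, GBP2 and GBP3 rose by 0.47 to 0.91, the immunoproteasome subunits PSMB8, PSMB9 and PSMB10 by 0.66 to 1.26, and the nuclear body genes SP100 and SP110 by 0.63 and 0.18. The rise of SP110 (limma adjusted p = 0.0355) was no longer called without the filter on low values or when any 1 of 5 of the 6 libraries was left out. PSMB8, PSMB10 and SP110 share from 20.6% to 34.8% of their exonic bases with other genes.

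**Figure D2:**
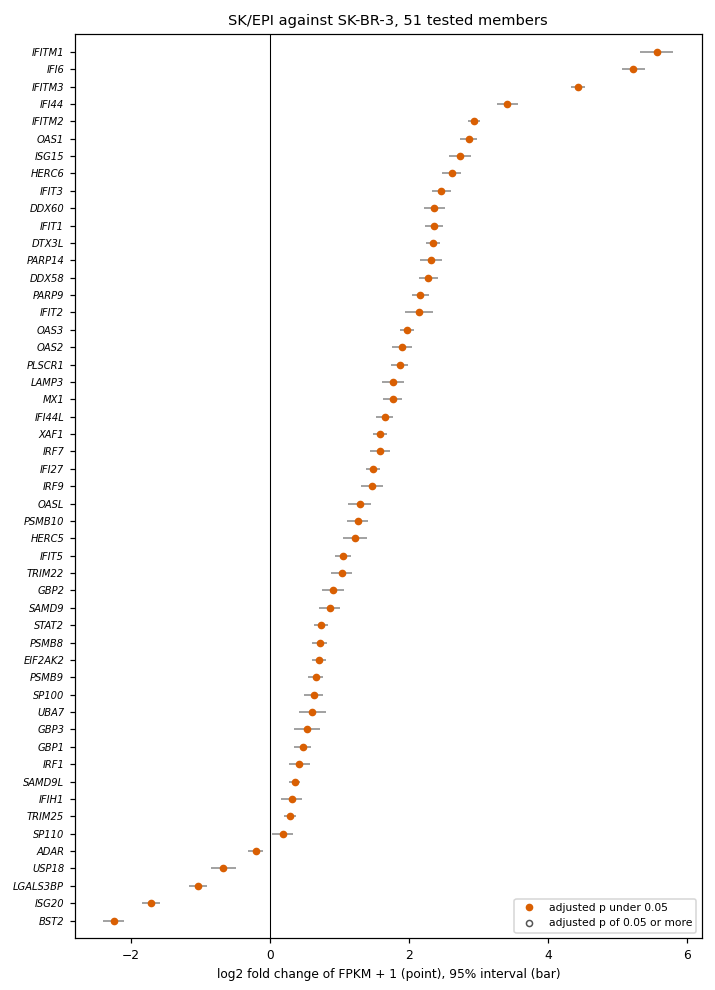
Log2 fold change of FPKM + 1 between SK/EPI and SK-BR-3 for the 51 tested members, ordered by size, with unadjusted 95% intervals as bars; all points are filled because each passed an adjusted p of 0.05. IFITM1 lies farthest right at 5.57 and BST2 farthest left at -2.24, and 46 points lie right of 0.

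The second comparison asked what the knockdown of BCRP changed in SK/EPI. The ISGs moved little and in both directions. Of 55 tested members, 17 rose and 12 fell (adjusted p under 0.05, limma with Benjamini-Hochberg adjustment over 16298 genes), where 19.4% of all genes rose and 18.7% fell, and the members' shares were 30.9% and 21.8%. Whether these shares differ from the background was not tested. No member changed by a log2 of 1 or more, beside 0.0675% of all genes upward and 0.344% downward. The members' median was 0.04 and that of all genes -0.004.

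The largest rise on the log2(FPKM + 1) scale was that of ISG15, from 164, 161 and 159 FPKM in SK/EPI-siNC to 212, 211 and 205 FPKM in SK/EPI-siBCRP, a log2 fold change of 0.38 ± 0.02 (limma adjusted p = 2.9e-05). IFIH1 measured 12.5, 12.3 and 12.8 FPKM with the control siRNA and 16.2, 16.2 and 16.6 FPKM with the BCRP siRNA, a log2 fold change of 0.36 ± 0.03. CMPK2, a mitochondrial nucleotide kinase, measured 2.88, 2.83 and 3.04 FPKM and then 4.04, 3.69 and 3.99 FPKM, a log2 fold change of 0.32 ± 0.05. For all 3 genes the groups did not overlap. By the ratio of means MX2 (1.64-fold) and CMPK2 (1.34-fold) rose more than ISG15 and IFIH1 (both 1.30-fold), MX2 from under 1 FPKM. OASL, OAS3 and IFITM1 rose by 0.28, 0.27 and 0.27 on the log2 scale, and EIF2AK2 and IRF1 by 0.25 and 0.21; 22.0% of the exonic bases of IRF1 overlap an opposite-strand gene.

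GBP2, an interferon-inducible GTPase, had the largest fall. It measured 4.64, 5.36 and 4.53 FPKM in SK/EPI-siNC and 2.46, 2.72 and 2.54 FPKM in SK/EPI-siBCRP, a log2 fold change of -0.71 ± 0.07 (limma adjusted p = 0.00021), and 9.89% of its exonic bases are shared with GBP7. SAMD9 and SAMD9L, neighbouring restriction factors on chromosome 7, fell together. SAMD9 measured 9.89, 10.5 and 10.7 FPKM and then 7.28, 7.58 and 7.72 FPKM, and SAMD9L had a log2 fold change of -0.28 ± 0.04. IFIT2 measured 17.1, 16.8 and 16.6 FPKM with the control siRNA and 13.4, 13.7 and 13.3 FPKM with the BCRP siRNA, a log2 fold change of -0.30 ± 0.03. OAS2 had a log2 fold change of -0.28 ± 0.03, IFI44L of -0.22 ± 0.03, STAT2 of -0.20 ± 0.04 and HERC6 of -0.12 ± 0.03.

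The other rises, of MX2, RTP4, LGALS3BP, PLSCR1, IFITM3, MX1 and ADAR, ran from 0.08 for ADAR to 0.25 for MX2 on the log2 scale. The other falls were those of IFI44, PSMB9, RSAD2 and TRIM25, with log2 fold changes of -0.11, -0.17, -0.18 and -0.19. The calls of IFI44, PSMB9, RSAD2, ADAR and MX2 were lost without a filter on low values. The calls of IFI44, PSMB9, RSAD2 and ADAR were each also lost when any of 4 of the 6 libraries was left out, those of IFI44 and PSMB9 with a replicate block, that of ADAR with levels scaled by reads on genes, and that of RTP4 with voom. EPSTI1, at no more than 0.0632 FPKM in any library, was not tested.

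Members of 1 family went apart: OAS3 and OASL rose while OAS2 fell, and IFIT5 rose while IFIT2 fell. The call of IFIT5 (limma adjusted p = 0.0225) was lost when any of 4 of the 6 libraries was left out. IFIT1 and IFIT3 were not called, and neither was OAS1, with a log2 fold change of -0.08. Several abundant members were measured closely enough to bound the change. The 95% interval of the log2 fold change was -0.08 to 0.11 for IFI6, -0.07 to 0.06 for IFITM2 and -0.01 to 0.11 for IRF7. It was 0.02 to 0.15 for DDX58 (limma adjusted p = 0.0583) and -0.17 to -0.02 for BST2 (limma adjusted p = 0.0593). IRF9 and HERC5 had wider intervals, -0.27 to 0.12 and -0.07 to 0.15. USP18 was called at a limma adjusted p of 0.0481 with a log2 fold change of 0.19 ± 0.06, and this call was lost without a filter on low values, with levels scaled by reads on genes, with a replicate block and when any of 5 of the 6 libraries was left out.

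**Figure D3:**
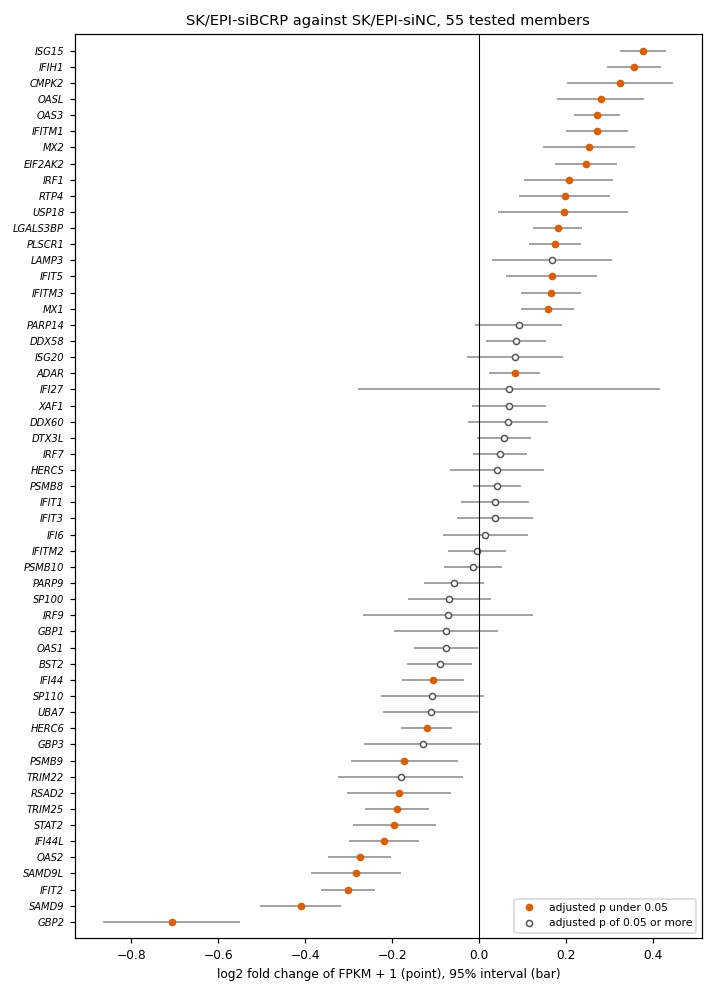
Log2 fold change of FPKM + 1 between SK/EPI-siBCRP and SK/EPI-siNC for the 55 tested members, ordered by size, with unadjusted 95% intervals as bars; filled points passed an adjusted p of 0.05. The points run from -0.71 for GBP2 to 0.38 for ISG15, with 17 called above 0 and 12 called below.

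Set side by side, the levels in the 4 groups form steps. The median level of the 56 members was 1.07 to 1.22 FPKM in the SK-BR-3 libraries, 4.95 to 5.15 in SK/EPI, 13.6 to 13.9 in SK/EPI-siNC and 13.8 to 14.6 in SK/EPI-siBCRP. The number of members at 1 FPKM or more was 28 or 29, then 49, 52 and 52. The medians of SK/EPI-siNC and SK/EPI-siBCRP overlapped.

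The step between untreated SK/EPI and SK/EPI-siNC lies between the tables, and no source used here says that they were normalized together. Transfection, table and preparation therefore cannot be told apart, and no test was made. Of the 51 members tested in both tables, 49 were higher in SK/EPI-siNC, with a median log2 difference of 0.97, and 24 (47.1%) differed by 1 or more. Over all 15152 genes tested in both, the median was 0.04 and 1.12% were higher by 1 or more. OAS2 went from 3.10 to 3.38 FPKM in untreated SK/EPI to 33.6 to 34.3 FPKM in SK/EPI-siNC, IFI44 from 9.96 to 11.1 FPKM to 57.2 to 60.1 FPKM, and SAMD9L from 0.315 to 0.337 FPKM to 4.96 to 5.22 FPKM. BST2, which fell in the resistant line, stood at 13.9 to 16.1 FPKM in untreated SK/EPI and 78.2 to 81.4 FPKM in SK/EPI-siNC, beside 69.1 to 78.1 FPKM in SK-BR-3. IFITM2 and LGALS3BP were the exceptions, and their libraries overlapped between the tables. IFITM3 was 1.29-fold higher in SK/EPI-siNC, whereas CMPK2 was 22.0-fold higher from few reads.

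**Figure D4:**
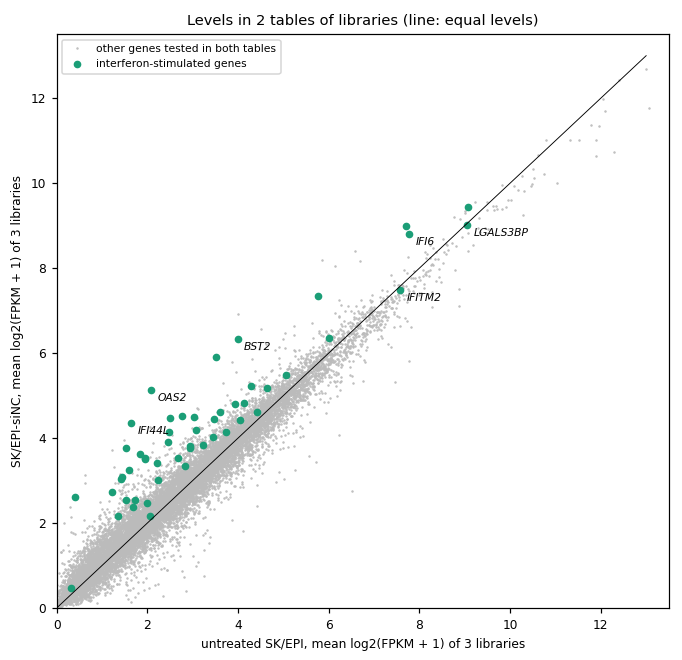
Mean log2(FPKM + 1) over 3 libraries in untreated SK/EPI on the horizontal axis and in SK/EPI-siNC on the vertical axis, for all 15152 genes tested in both tables (grey) and the 51 members among them (green), with a line of equal levels. 49 of the green points lie above the line, OAS2 among the farthest, while IFITM2 and LGALS3BP lie on or just below it.

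The signalling parts upstream of the ISGs changed unevenly. Among the interferon receptors and kinases, IFNGR1, JAK2 and TYK2 rose in SK/EPI against SK-BR-3, and IFNAR1 and IFNGR2 fell, as did STAT3. IFNGR1, a chain of the interferon gamma receptor, measured 11.3, 11.3 and 10.4 FPKM in SK-BR-3 and 94.9, 96.9 and 99.0 FPKM in SK/EPI, a log2 fold change of 3.03 ± 0.04 (limma adjusted p = 5.6e-10). JAK2 and TYK2 had log2 fold changes of 0.83 ± 0.05 and 0.71 ± 0.04. After BCRP siRNA IFNGR1 and JAK1 fell, IFNGR1 from a mean of 96.3 to 76.9 FPKM, and no tested gene of this list rose. Over all tested genes 19.4% rose and 18.7% fell in that comparison.

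Transcripts of the interferons themselves were scarce. The 21 interferon genes together had at most 3 reads in a SK-BR-3 library, 24 in SK/EPI, 49 in SK/EPI-siNC and 59 in SK/EPI-siBCRP, and none had enough reads to test between the untreated lines. Their summed level was 0.381 to 1.2 FPKM in SK/EPI and 1.93 to 2.57 FPKM in SK/EPI-siNC. IFNB1 had at most 6 reads in any library. In the siRNA comparison 2 were tested, of which IFNE fell (limma adjusted p = 0.0404) and IFNL1 was not called. IFNE had 16 to 20 reads in the SK/EPI-siNC libraries and 9 to 13 in the SK/EPI-siBCRP libraries. It met the filter through the control group, which limits its test.

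Of the nucleic acid sensing genes upstream of interferon, 18 of 20 names were matched and 10 were tested between the untreated lines. The names without a match, MB21D1 and STING1, are other names of CGAS and TMEM173, so no gene of the list was missing. TMEM173 (the adaptor STING), TICAM1, IRF5 and DHX58 rose, and MYD88 and IKBKE fell. TMEM173 measured 1.52, 1.87 and 2.03 FPKM in SK-BR-3 and 24.7, 25.9 and 26.6 FPKM in SK/EPI, a log2 fold change of 3.25 ± 0.07. CGAS, which makes the ligand of STING, had at most 6 reads in any library. After BCRP siRNA 12 were tested, TMEM173 and IRF3 rose, and MYD88, IKBKE and IRF5 fell. Among 10 negative regulators, which include ISG15 and USP18, 7 rose and 2 fell in SK/EPI, led by SOCS3 with a log2 fold change of 3.65 ± 0.07. After BCRP siRNA 5 of them rose and 3 fell. Over all tested genes 37.9% rose and 37.0% fell in SK/EPI, and 19.4% rose and 18.7% fell after BCRP siRNA. Whether these lists differ from those shares was not tested. Among the other IRF family genes IRF2, IRF5 and IRF8 rose in SK/EPI, while IRF3 rose and IRF5 fell after BCRP siRNA. IRF8 had at most 1 read in a SK-BR-3 library and passed the filter through its SK/EPI level, so its test could hardly go the other way.

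Markers of other cell types were read in the same libraries. PTPRC, the leukocyte common antigen, had at most 3 reads in an untreated library and at most 14 in a transfected one, and MS4A1 was at 0 throughout. The summed level of the 10 leukocyte markers was nevertheless 4.91 to 5.05 FPKM in SK-BR-3, 32.6 to 34.7 in SK/EPI, 15.1 to 16.3 in SK/EPI-siNC and 15.6 to 16.9 in SK/EPI-siBCRP. Among the leukocyte markers tested, CD14 and CSF1R rose and ITGAM fell in SK/EPI, and CD14 rose after BCRP siRNA. CD14 had a log2 fold change of 4.23 ± 0.05 between the untreated lines. The 6 fibroblast markers summed to 1.36 to 1.96 FPKM over all libraries, with COL3A1 and PDGFRB higher and COL1A1 lower in SK/EPI and COL3A1 lower after BCRP siRNA. COL3A1 and PDGFRB had at most 2 reads in a SK-BR-3 library and passed the filter through their SK/EPI level. For them a test between the lines could hardly go the other way. Of the 4 endothelial markers PECAM1 and CDH5 rose in SK/EPI, and CDH5 rose after BCRP siRNA. PECAM1 had at most 3 reads in a SK-BR-3 library, so the same limit holds for its rise. The 4 markers summed to 6.70 to 6.99 FPKM in SK-BR-3 and 27.0 to 28.1 FPKM in SK/EPI. Nearly all of this was CDH5, with means of 6.77 and 27.5 FPKM. Of the 6 luminal markers KRT8 and KRT18 rose and KRT19 and ERBB2 fell in SK/EPI. All 5 that were tested fell after BCRP siRNA, where 18.7% of all tested genes fell. The part of these markers in the ISG values was not tested.

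Certain members sit near the drug pump genes that were very high in SK/EPI. HERC6 and HERC5 lie 147 kb and 226 kb from ABCG2 on chromosome 4, with log2 fold changes of 2.62 and 1.22 in SK/EPI. Of 15 further tested neighbours of that pump gene, up to 1 Mb away, 11 rose and 2 fell, and their median on the same scale was 0.49. Among all tested genes 37.9% rose and 37.0% fell. SAMD9 and SAMD9L lie 5.39 Mb and 5.42 Mb from ABCB1, the gene of P-glycoprotein, on chromosome 7. SAMD9 measured 0.974, 1.15 and 1.25 FPKM in SK-BR-3 and 2.92, 2.79 and 2.84 FPKM in SK/EPI, and SAMD9L 0.0265, 0.0466 and 0.0221 FPKM and then 0.315, 0.318 and 0.337 FPKM. Between ABCB1 and SAMD9L 24 further genes were tested, of which 11 rose and 4 fell, with a median of 0.15. Some risen neighbours, among them SPP1 near ABCG2 and HNRNPA1P9 near ABCB1, had a mean of 0 FPKM in SK-BR-3. They passed the filter only through SK/EPI. The part of position in these changes was not tested.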

How the data were processed

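RNA-seq was read from 2 deposited tables of FPKM, 1 for SK-BR-3 and SK/EPI and 1 for the siRNA groups. According to the submitters' processing notes and the methods, the authors aligned reads to hg38 with HISAT2 2.0.5, counted them with featureCounts 1.5.0-p3 and used DESeq2 1.16.1 for their own comparisons. Libraries came from a NEBNext Ultra kit. The counting strand is not given in the sources used here. All FPKM values, multiplied by the GENCODE 29 exon length and divided by the worth of 1 read, gave whole reads (100%, tolerance 0.05). These gave the depth and the filter, under which a gene needed 10 reads or more (for a library of median size) in 3 libraries and 15 in all. Each table was fitted separately with limma 3.58.1 (R 4.3.3; empirical Bayes with trend) on log2(FPKM + 1), without a replicate block, over all genes, with Benjamini-Hochberg adjustment at 0.05. The floor for ratios was 3 reads per library and covers counting error only. Libraries with the same number did not deviate together. Alternatives were another pseudocount, filters, scalings, voom on the recovered reads, a replicate block and leaving out each library; median-of-ratios scaling was added after the data had been seen. The members, pathway lists and markers were chosen with earlier results of these data known. Members named in the text were the 8 largest rises and 4 largest falls between SK/EPI and SK-BR-3 with a mean of 1 FPKM or more in either line, the 6 largest of each after BCRP siRNA, the regulators and sensors, and those near the pump genes; others are named for their family or as limits. Some genes of the pathway and marker lists are not reported here.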

Additional observations from a re-analysis of the deposited data

How the results depend on the processing

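In SK/EPI against SK-BR-3 the 46 rises and 5 falls of members kept their direction in every alternative run; the call of SP110 was lost without the filter and in 5 of the fits that left out 1 library. The count of falls became 3 with a log2 fold change of at least 1. The members' median log2 fold change was 2.19 with a pseudocount of 0.1, 1.24 without a filter, 1.04 with at least 10 reads in every library, 1.53 scaled by reads on genes, 2.75 with voom (which moved the median of all genes to 0.102) and 1.40 to 1.48 when 1 library was left out. After BCRP siRNA no rise and no fall (0 and 0) reached a log2 of 1. The median was 0.03 scaled by reads on genes and 0.03 to 0.05 with 1 library left out. Members that were not called crossed 0: IFI6 at -0.001 with voom and between -0.025 and 0.042 with 1 library left out, IFITM2 between -0.025 and 0.022, and IRF9 between -0.122 and 0.021. The replicate block left the medians at 1.47 and 0.04 and, after BCRP siRNA, ended the calls of IFI44, USP18 and PSMB9 and added TRIM22. Without a filter IFI44, IFIT5, MX2, USP18, RSAD2, ADAR and PSMB9 lost theirs. The causes were not tested. Depth limits members with few reads in SK-BR-3.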
